A study of Homo sapiens with 8 samples.

Results

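The genes described here repair DNA double-strand breaks and interstrand crosslinks: 37 genes of homologous recombination, the Fanconi pathway and the checkpoint kinases that act with them. They form a fixed list of symbols, chosen for their roles and not by a value on these arrays, though earlier results of the same arrays were known. The brightest single-symbol probe set (highest mean log2 signal over the 8 arrays) stood for each gene. Of the 37 genes, 33 had such a probe set, of 18244 genes in all, and 32 reached the signal threshold for testing, of 11946 tested genes. No probe set with the single symbol BRCA2, RBBP8, FANCA or FANCD2 was analysed here. BRIP1, a helicase that binds BRCA1, was below the threshold (signals from 20.8 to 44.6 over the 8 arrays, against a threshold of 39.2 for the mean) and was not tested.

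The cells were SK-MEL-5, a human melanoma cell line, and mRNA was measured on 8 Affymetrix 3' expression arrays in 4 groups of 2. The DMSO group received 25 µM DMSO, and the THZ1 group received 250 nM THZ1 with 25 µM DMSO for 6 h. THZ1 is a covalent inhibitor of CDK7, a kinase of the transcription machinery, and it also binds CDK12 and CDK13. The siCtrl group was transfected with a non-targeting siRNA, and the siMITF group with siRNA targeting MITF, a transcription factor of the melanocyte lineage. How long DMSO was applied and when transfected cells were harvested are not given in the sources used here. Nor is it stated that arrays within a group represent independent cultures, and p-values therefore reflect array-to-array spread, which may be technical. The question of each comparison, by the series' title and design, is how mRNA levels per cell differ after CDK7 inhibition or MITF knockdown.

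Homologous recombination copies an intact sister chromatid to mend a broken one and is mostly used in S and G2 phase. Broken ends are first trimmed to single strands, the BRCA1, PALB2 and BRCA2 proteins then prepare them for strand exchange, and further factors and translocases assist the search for the matching sequence. The Fanconi core complex attaches ubiquitin to the FANCD2 and FANCI pair at crosslinks, and the ATM and ATR kinases signal the damage and hold the cell cycle.

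Values are given on 2 scales. On the deposited scale the series' design text describes values as cell number-normalized, and a change there is called per cell. Most genes of an array shared an offset, which differed between arrays of 1 group. Changes are therefore also given on a relative scale, where the offset is removed array by array and the median gene stays at about 0. Changes are log2 differences unless a fold is named, and genes passed the test at an adjusted p under 0.05 over all tested genes. Array offsets differed by -0.20 between THZ1 and DMSO and by -0.63 between siMITF and siCtrl on the log2 scale (exact two-sided permutation p = 0.667 and 0.333, where 0.333 is the smallest 2 against 2 arrays allow). The ERCC spike-in signals show the sets on different levels, so signals are compared only within a set. Over the 50 ERCC probe sets above the signal threshold, their median was 511 to 534 on the DMSO and THZ1 arrays. On the siRNA arrays it was 253 to 266. Over all 100 ERCC probe sets the medians were 48.0 to 53.9 and 27.6 to 30.8. MITF itself had signals of 1747 and 1168 with siMITF and of 3436 and 3936 with siCtrl, without overlap. It fell by 1.35 per cell (log2, limma adjusted p = 1.62e-06), and by 0.72 on the relative scale. Per cell most genes fell with siMITF: both siMITF arrays lay below both siCtrl arrays for 89.0% of all tested genes. The median change was -0.63 and 63.4% were called lower, so the per-cell fall of MITF was in part shared. Of 8 melanocyte markers, 7 had a probe set and were above the threshold, with summed signals of 41510 to 44890 with DMSO and 36530 to 45080 with THZ1, and of 27210 to 31270 with siCtrl and 17390 to 21580 with siMITF. Above it were also 1 of 5 keratinocyte genes (KRT10), 3 of 6 fibroblast genes (LUM, DCN and PDGFRA) and 1 of 6 leukocyte genes (CD68). The summed fibroblast signal was 2370 to 2843 with DMSO, 2658 to 3449 with THZ1, 1539 to 1873 with siCtrl and 745.8 to 978.8 with siMITF, and the part of these genes in the results was not tested. The other genes of these 3 lists, among them KRT5, COL1A1, CD3E and PTPRC, were not above the threshold. The sums are of deposited signals and carry the array offsets. On the relative scale 1 of the 7 melanocyte markers fell and 3 rose with siMITF, and 2 fell and 3 rose with THZ1. Of the 3 fibroblast genes 1 fell and 2 rose with siMITF, and 0 fell and 3 rose with THZ1. Of all tested genes 24.7% fell and 19.5% rose with siMITF, and 21.1% and 17.7% with THZ1.

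With THZ1, 19 of the 32 tested repair genes fell on the relative scale and 0 rose, while 13 did not pass the test (limma, adjusted p under 0.05; also at an unadjusted p under 0.05, 0 were higher). This is 59.4% of them, against 21.1% of all tested genes called lower and 17.7% called higher. Per cell, 10 of 32 fell and 0 rose, 31.2% of them against 10.0% of all genes called lower and 0.0753% called higher. Their median change was -0.36 on the relative scale and -0.56 per cell, beside 0.04 and -0.16 over all tested genes. Both THZ1 arrays lay below both DMSO arrays for 23 of 32 genes per cell and above for 0, where 30.0% and 0.871% of all genes did so. On the relative scale this held for 23 below and 1 above (CHEK1), where 32.0% and 38.0% of all genes did so. The fall was uneven: per cell it was largest in PALB2, BLM, RMI1 and EXO1, while FANCI, CHEK1 and RAD51B had changes of -0.14, -0.08 and -0.01.

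Among the BRCA complex genes PALB2, which bridges BRCA1 and BRCA2, changed most with THZ1. Its signal was 89.2 and 122 on the THZ1 arrays and 279 and 343 on the DMSO arrays. The groups were far apart. PALB2 fell 2.70-fold per cell (log2 change -1.44, SE 0.25, n = 2 per group, limma adjusted p = 8.51e-07) and 2.36-fold on the relative scale (-1.24, SE 0.07, adjusted p = 2.90e-06). BARD1, the partner of BRCA1 in its ubiquitin ligase, had 52.7 and 63.1 with THZ1 and 116 and 150 with DMSO, again without overlap. It fell 2.01-fold per cell (adjusted p = 0.00132) and 1.75-fold on the relative scale (log2 change -0.81, adjusted p = 8.06e-05). The per-cell call of BARD1 was lost without DMSO replicate 2. BRCA1, the ligase and tumour suppressor itself, had 151 and 229 with THZ1 and 242 and 379 with DMSO. The lowest DMSO array lay only just above the highest THZ1 array. Its change of -0.66 did not pass the test per cell (adjusted p = 0.0639) and that of -0.46 did on the relative scale (adjusted p = 0.0136), but the latter was lost without DMSO replicate 2, without THZ1 replicate 1, with BRCA1's own variance and with quantile normalization.

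Of 6 tested genes of end resection and of the dissolution of joined strands, 5 fell on the relative scale with THZ1 and 3 per cell. BLM, the Bloom syndrome helicase, had signals of 94.0 and 145 with THZ1 and of 332 and 329 with DMSO. The DMSO arrays nearly coincided, and both THZ1 arrays lay well below them (log2 change -1.38 per cell, adjusted p = 2.58e-06, and -1.18 on the relative scale, SE 0.11, adjusted p = 4.39e-05). RMI1, which works with BLM to separate entwined chromosomes, had 161 and 179 with THZ1 and 356 and 489 with DMSO (-1.22 per cell, -1.02 on the relative scale). EXO1, a nuclease that lengthens the single-stranded ends, had 110 and 155 with THZ1 and 275 and 345 with DMSO (-1.15 and -0.95). In each of these 3 genes the groups were separate and both scales passed the test. The per-cell calls of RMI1 and EXO1 were lost without DMSO replicate 2. NBN, of the complex that senses broken ends, fell by 0.41 on the relative scale, and RAD50, of the same complex, by 0.27, and neither passed per cell (adjusted p = 0.103 and 0.274). The relative call of RAD50 was lost without either DMSO array or THZ1 replicate 2. WRN, the Werner syndrome helicase, had -0.07 on the relative scale (adjusted p = 0.807).

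The strand exchange and annealing factors moved less. XRCC2, which assists strand exchange, had 48.4 and 64.3 with THZ1 and 104 and 124.9 with DMSO, and RAD54B, a translocase, 93.1 and 122 with THZ1 and 182 and 221 with DMSO. Both groups were apart in both genes, with changes of -0.85 and -0.82 per cell and of -0.65 and -0.62 on the relative scale (relative adjusted p = 2.34e-04 and 2.45e-04). Both per-cell calls were lost with the mean of a gene's probe sets and with each gene's own variance. They were also lost without DMSO replicate 2 or THZ1 replicate 1. RAD51C, RAD51D and XRCC3, which act in the same step, fell on the relative scale alone, by 0.42, 0.37 and 0.28. The XRCC3 call was kept in only 2 of 8 fits that left out an array, and its signals overlapped. The other 4 tested genes of this group did not pass on either scale. RAD52, which anneals single strands, had -0.16 on the relative scale, the translocase RAD54L -0.15, the strand exchange factor RAD51AP1 -0.11 and RAD51B 0.19.

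Within the Fanconi core complex 3 of 7 tested genes fell on the relative scale and 2 per cell. FANCF, an adaptor that holds parts of the complex together, had 65.5 and 107 with THZ1 and 149 and 250 with DMSO. The groups did not overlap although each spread widely, and the change was -1.06 per cell (adjusted p = 5.38e-04) and -0.87 on the relative scale (SE 0.13, adjusted p = 7.83e-04). The per-cell call of FANCF was lost without DMSO replicate 2 or THZ1 replicate 1. FANCM, the translocase that anchors the complex at stalled forks, had 36.5 and 39.5 with THZ1 and 68.5 and 75.8 with DMSO (-0.71 and -0.51), all near the dim end of the tested genes. Its per-cell call (adjusted p = 0.0414) was kept in only 1 of 8 fits that left out an array. FANCE fell by 0.40 on the relative scale. FANCL, the ubiquitin ligase, had -0.16, FANCB -0.14, FANCG -0.10 and FANCC -0.08 on that scale, and none of these 4 passed the test on either scale. SLX4, a scaffold for nucleases, fell by 0.39 on the relative scale, but FANCI had signals of 327 and 509 with THZ1 against 400 and 507 with DMSO. The FANCI groups overlapped, with changes of -0.14 per cell (adjusted p = 0.943) and 0.06 on the relative scale (adjusted p = 0.571).

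The checkpoint genes split with THZ1. ATRIP, which brings ATR to single-stranded DNA, had 45.9 and 51.4 with THZ1 and 97.5 and 118 with DMSO, without overlap, and fell by 0.93 per cell (adjusted p = 0.00337) and by 0.73 on the relative scale (adjusted p = 2.94e-04). Its per-cell call was lost without DMSO replicate 2. TOPBP1, an activator of ATR, fell by 0.36 on the relative scale. ATR itself had 124.6 and 180 with THZ1 and 199 and 208 with DMSO. The THZ1 arrays were the lower ones, but the change of -0.20 on the relative scale did not pass the test (adjusted p = 0.116). ATM had 293 and 415 with THZ1 and 359 and 492 with DMSO, and CHEK1, the kinase that ATR activates, had 235 and 311 with THZ1 and 260 and 315 with DMSO. In both genes the deposited signals overlapped. On the relative scale ATM overlapped too, while both THZ1 arrays of CHEK1 lay above both DMSO arrays. Neither gene passed the test there (relative change -0.06 and 0.12, adjusted p = 0.646 and 0.260).

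**Figure D1:**
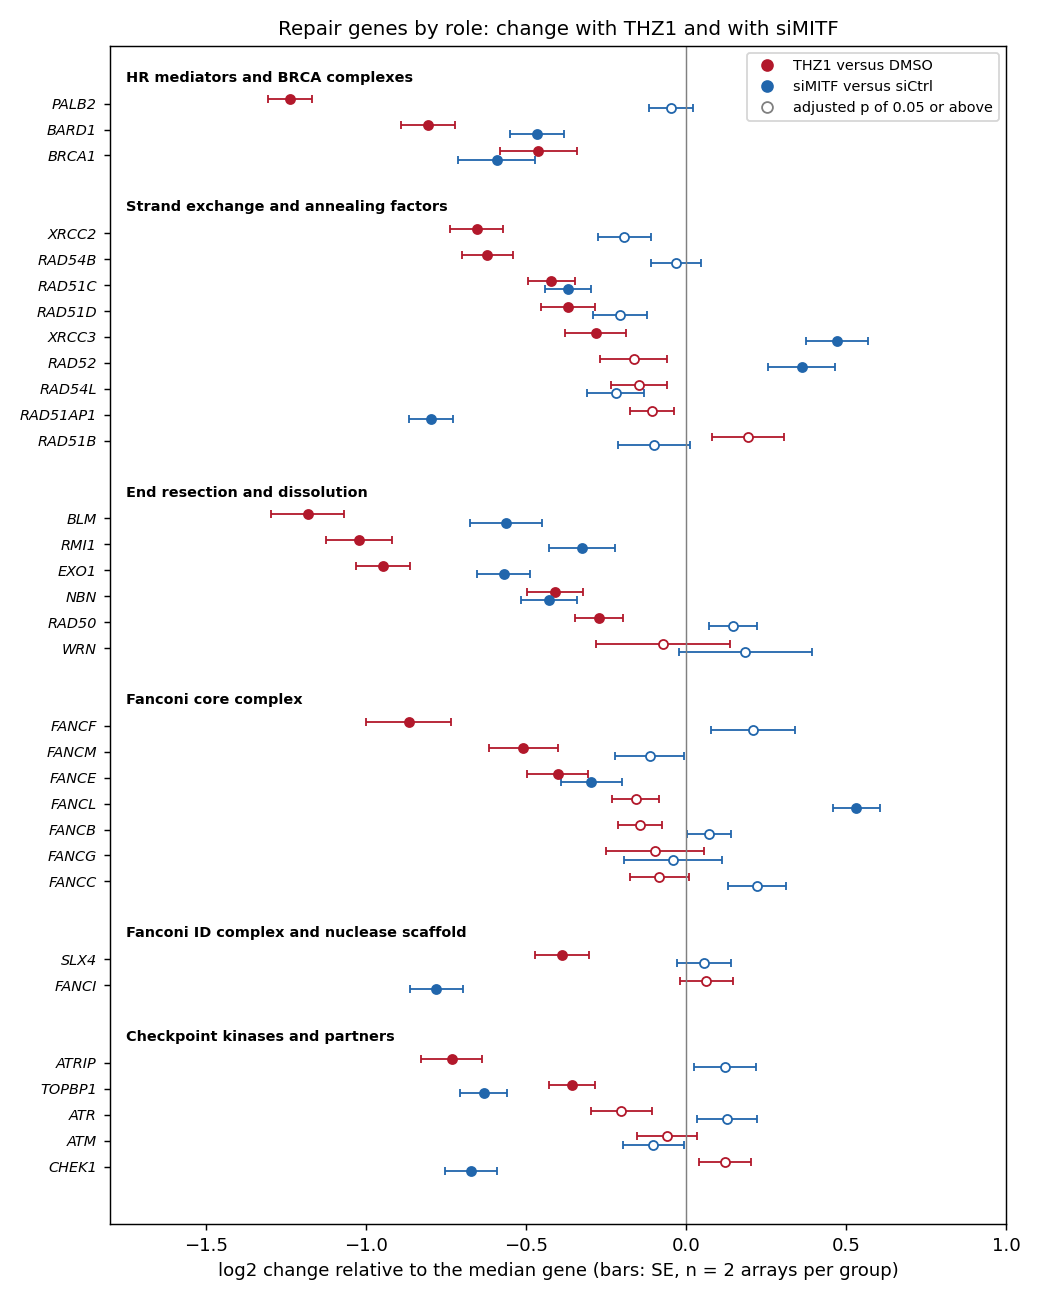
Log2 change on the relative scale (horizontal axis) of the 32 tested repair genes, by role, with THZ1 against DMSO (red) and siMITF against siCtrl (blue). Points are estimates, bars are the SE (n = 2 arrays per group), and filled points have an adjusted p under 0.05. PALB2, BLM and RMI1 lie lowest with THZ1, and RAD51AP1, FANCI and CHEK1 lowest with siMITF.

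The promoters of 5 of these genes are shown, which did not all move with the same treatment. RefSeq promoter windows (GRCh38.p14, 250 bases before to 50 after each start) were at hand for 33 of the 37 genes, 28 of them tested. The 120 bases before the start are printed 5′ to 3′ on the gene's strand for 3 genes that fell with THZ1 (PALB2 at chr16:23641311-23641430, minus strand; BLM at chr15:90717226-90717345, plus strand; FANCF at chr11:22625824-22625943, minus strand). They are followed by 2 that fell with siMITF but did not pass with THZ1 (RAD51AP1 at chr12:4538770-4538889 and the first of 3 windows of CHEK1 at chr11:125626109-125626228, both plus strand). These 5 were picked after their values and matches were seen. Capitals mark the CCAAT box, the binding letters of the factor NF-Y, or its reverse complement ATTGG.
PALB2: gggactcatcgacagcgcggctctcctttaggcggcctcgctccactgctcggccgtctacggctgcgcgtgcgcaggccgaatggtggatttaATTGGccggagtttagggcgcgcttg
BLM: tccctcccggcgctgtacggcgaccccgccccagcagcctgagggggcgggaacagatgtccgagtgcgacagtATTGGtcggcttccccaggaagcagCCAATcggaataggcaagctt
FANCF: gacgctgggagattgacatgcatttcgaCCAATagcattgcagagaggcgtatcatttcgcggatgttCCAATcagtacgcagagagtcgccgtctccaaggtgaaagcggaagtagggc
RAD51AP1: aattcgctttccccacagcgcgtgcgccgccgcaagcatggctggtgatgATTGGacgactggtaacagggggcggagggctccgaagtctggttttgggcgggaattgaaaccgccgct
CHEK1: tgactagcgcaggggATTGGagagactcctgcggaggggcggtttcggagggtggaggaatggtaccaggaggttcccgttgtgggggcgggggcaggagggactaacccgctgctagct
Searched on both strands of the whole windows, CCAAT was found in 14 of the 33 genes (42.4%) and in 39.7% of 27305 genes with a window, so the share is near that of all genes. Among genes with a window that fell on the relative scale, CCAAT was found in 8 of 17 with THZ1 and 5 of 10 with siMITF. The E2F-type letters TTTCCCGC were found in 3 of the 33 genes (FANCD2, XRCC2 and FANCC) against 1.98% of all genes. FANCD2 was not analysed, and FANCC did not pass on either scale with either treatment. Of the same falling genes, 1 of 17 with THZ1 (XRCC2) and 0 of 10 with siMITF had the match. TTTGGCGC was found in 0 of 33 against 0.795%, and the CHR letters TTTGAA in 3 of 33 against 18.2%. No motif searched contains another, and a gene counts once however many windows it has. A match is a description and not a binding site.

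With siMITF, 23 of the 32 tested repair genes fell per cell and 0 rose, but 63.4% of all tested genes were also called lower per cell (0.326% higher), near the 71.9% of the repair genes. On the relative scale, 12 of 32 fell and 3 rose, 37.5% and 9.38% of them against 24.7% and 19.5% of all genes. Their median change was -0.74 per cell and -0.11 on the relative scale, beside -0.63 and 0.00 over all tested genes. Both siMITF arrays lay below both siCtrl arrays for 28 of 32 genes per cell and above for 0, where 89.0% and 0.929% of all genes did so. On the relative scale 16 lay below and 9 above, where 38.0% and 35.3% of all genes did so. RAD51AP1, FANCI and CHEK1 fell furthest, while FANCL, XRCC3 and RAD52 rose on the relative scale. The per-cell count of higher genes was 0 with limma at an unadjusted p under 0.05 too.

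RAD51AP1 had signals of 75.3 and 58.6 with siMITF and of 185 and 230 with siCtrl, and fell 2.69-fold per cell (log2 change -1.43, SE 0.25, n = 2 per group, adjusted p = 4.28e-07) and 1.74-fold on the relative scale (-0.80, SE 0.07, adjusted p = 3.25e-05). FANCI had 204 and 161 with siMITF and 460 and 564 with siCtrl (-1.41 per cell, adjusted p = 5.62e-07, and -0.78 on the relative scale, adjusted p = 9.58e-05). CHEK1 had 145 and 113 with siMITF and 288 and 400 with siCtrl (-1.30 and -0.67). In these 3 genes both siMITF arrays lay below both siCtrl arrays on either scale. TOPBP1 had 283 and 215 with siMITF and 579 and 655 with siCtrl, again without overlap, and changed by -1.26 per cell (adjusted p = 6.96e-06) and by -0.63 on the relative scale (adjusted p = 1.58e-04).

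BRCA1 fell with siMITF on both scales, but both calls were lost with its own variance. Its signals were 134 and 88.6 with siMITF and 239 and 320 with siCtrl, without overlap (-1.22 per cell, adjusted p = 1.29e-05, and -0.59 on the relative scale, adjusted p = 0.00347). BARD1, its partner, had 57.5 and 45.7 with siMITF and 111 and 148 with siCtrl (-0.47 on the relative scale, adjusted p = 0.00184). PALB2, the gene that changed most with THZ1, had 145 and 122 with siMITF and 199 and 249 with siCtrl. It was lower per cell (-0.68, adjusted p = 0.0127), as most genes were, and had -0.05 on the relative scale (adjusted p = 0.600).

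Among the resection and dissolution genes, EXO1 (120 and 98.0 with siMITF, 227 and 322 with siCtrl) and BLM (126 and 119 with siMITF, 283 and 321 with siCtrl) fell by 0.57 and 0.56 on the relative scale and by 1.20 and 1.19 per cell. NBN and RMI1 fell by 0.43 and 0.33 on the relative scale. RAD50 and WRN had 0.15 and 0.19 on that scale and did not pass on either. Of the remaining genes RAD51C and FANCE also fell on the relative scale, by 0.37 and 0.30. The relative calls of BLM, RMI1 and FANCE were lost with each gene's own variance. Those of NBN, RMI1 and RAD51C were lost with quantile normalization. The relative calls of RMI1 and FANCE were each lost without either siCtrl array or siMITF replicate 1.

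The 3 genes that rose on the relative scale with siMITF did not rise per cell. FANCL had 524 and 399 with siMITF and 438 and 551 with siCtrl. The signals overlapped, and against the general drop its relative change was 0.53 (SE 0.07, adjusted p = 4.03e-04) with -0.10 per cell (adjusted p = 0.703). XRCC3 had 60.5 and 43.1 with siMITF and 52.5 and 66.5 with siCtrl (0.47 on the relative scale, adjusted p = 0.00338, and -0.16 per cell), and RAD52 had 39.8 and 28.4 against 38.8 and 49.9 (0.36, adjusted p = 0.0192, and -0.27). The call of RAD52 was lost without any 1 of the 4 siRNA arrays, without the signal filter, with its own variance and with quantile normalization, and that of XRCC3 without the filter and with quantile normalization. Of the kinases, ATM had 203 and 168 with siMITF and 264 and 382 with siCtrl, and ATR 94.2 and 76.6 with siMITF and 108 and 150 with siCtrl. Neither changed on the relative scale by a passing amount (-0.10 and 0.13, adjusted p = 0.407 and 0.296), and ATM was lower per cell (-0.73, adjusted p = 0.00734).

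**Figure D2:**
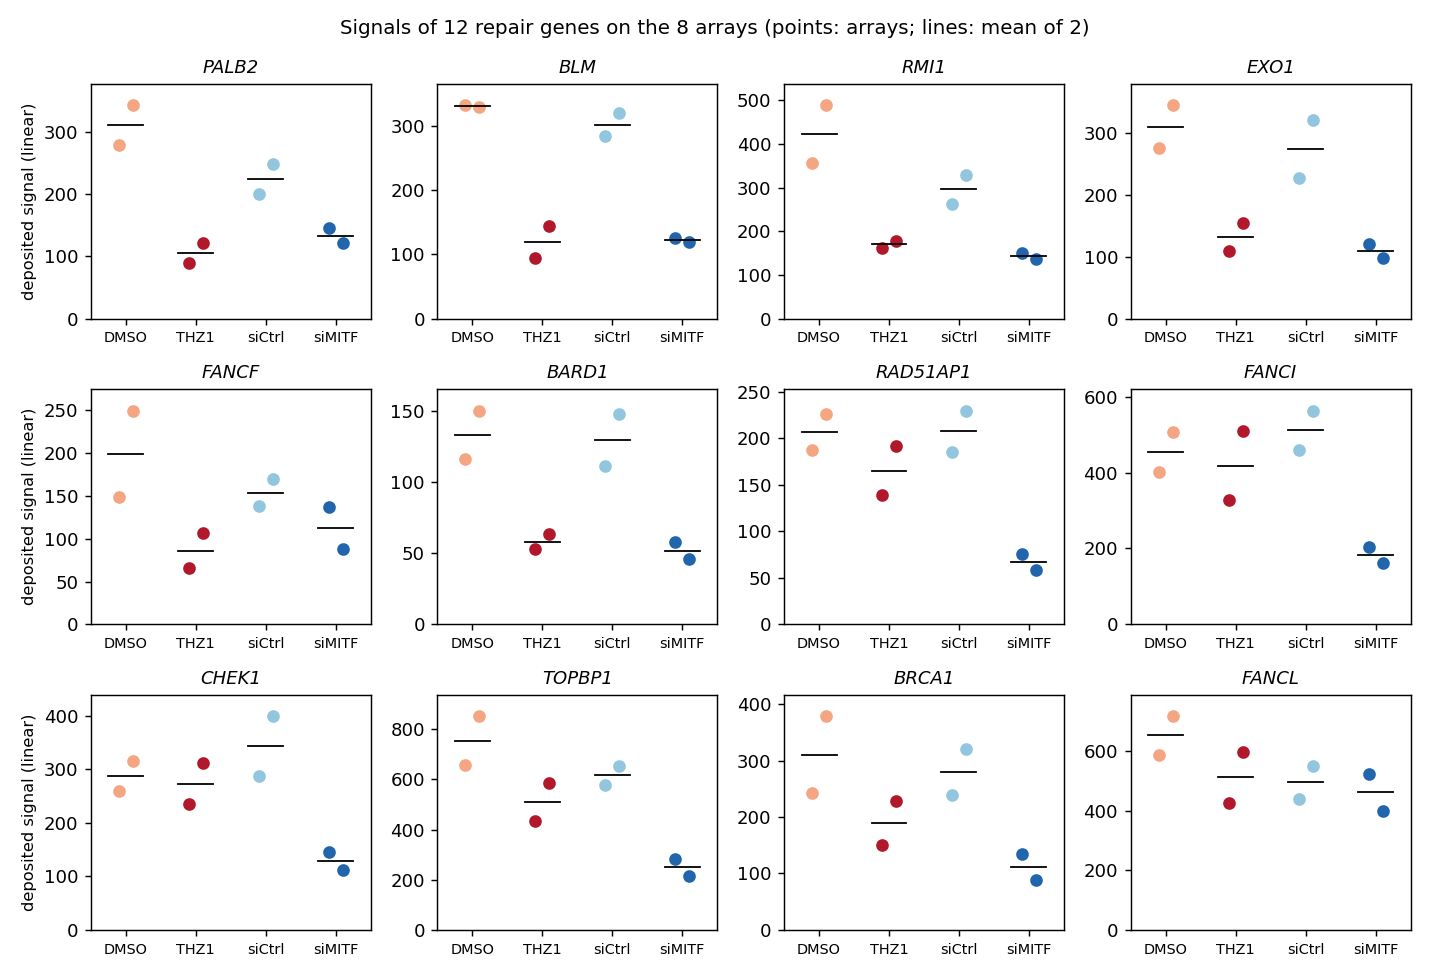
Deposited signal on a linear scale starting at 0 (vertical axis) of 12 repair genes on the DMSO, THZ1, siCtrl and siMITF arrays. Points are arrays and lines the mean of 2. PALB2 fell from 279 and 343 to 89.2 and 122 with THZ1, while FANCI overlapped between DMSO and THZ1 and fell from 460 and 564 to 204 and 161 with siMITF.

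The changes with THZ1 and siMITF, which share no arrays, were compared in 1 test of their difference. On the relative scale, 14 of 32 repair genes had a lower change with THZ1 than with siMITF and 3 a higher one, against 20.2% and 21.4% of all tested genes. The median difference was -0.32. PALB2 differed most (-1.19, SE 0.10, adjusted p = 3.21e-05), followed by FANCF (-1.07, adjusted p = 0.00149), ATRIP (-0.85, adjusted p = 8.82e-04), XRCC3 (-0.75), RMI1 (-0.70), FANCL (-0.69) and BLM (-0.62). For PALB2, FANCF and ATRIP the THZ1 change was -1.24, -0.87 and -0.73 and the siMITF change -0.05, 0.21 and 0.12. FANCI (0.84, SE 0.12), CHEK1 (0.79) and RAD51AP1 (0.69) differed the other way (adjusted p = 4.55e-04, 5.58e-04 and 4.55e-04). BRCA1, NBN, RAD51C and ATM had differences between -0.05 and 0.13 that did not pass the test. The calls of BARD1 (-0.34) and EXO1 (-0.38) were each kept in only 2 of 8 fits that left out an array.

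Per cell the same test passed for fewer genes, with 3 of 32 higher (FANCI 1.28, CHEK1 1.23, RAD51AP1 1.12, SE 0.35 each, adjusted p = 0.00987, 0.0128 and 0.0225) and 0 lower, against 9.84% of all genes higher and 0.946% lower. The 3 higher genes are 9.38% of the repair genes, near the share of all genes. With limma 1 gene was lower at an unadjusted p under 0.05, PALB2 (-0.76, adjusted p = 0.123). The 3 higher calls were each lost without DMSO replicate 1, THZ1 replicate 2, siCtrl replicate 2 or siMITF replicate 2. Of the 32 genes, 9 fell with both treatments on the relative scale, 10 passed as lower with THZ1 alone, 3 with siMITF alone and 10 with neither, where these counts were 745, 1775, 2201 and 7225 of all 11946 genes. Per cell the split was 8, 2, 15 and 7 of the 32, and 765, 434, 6803 and 3944 of all genes.

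**Figure D3:**
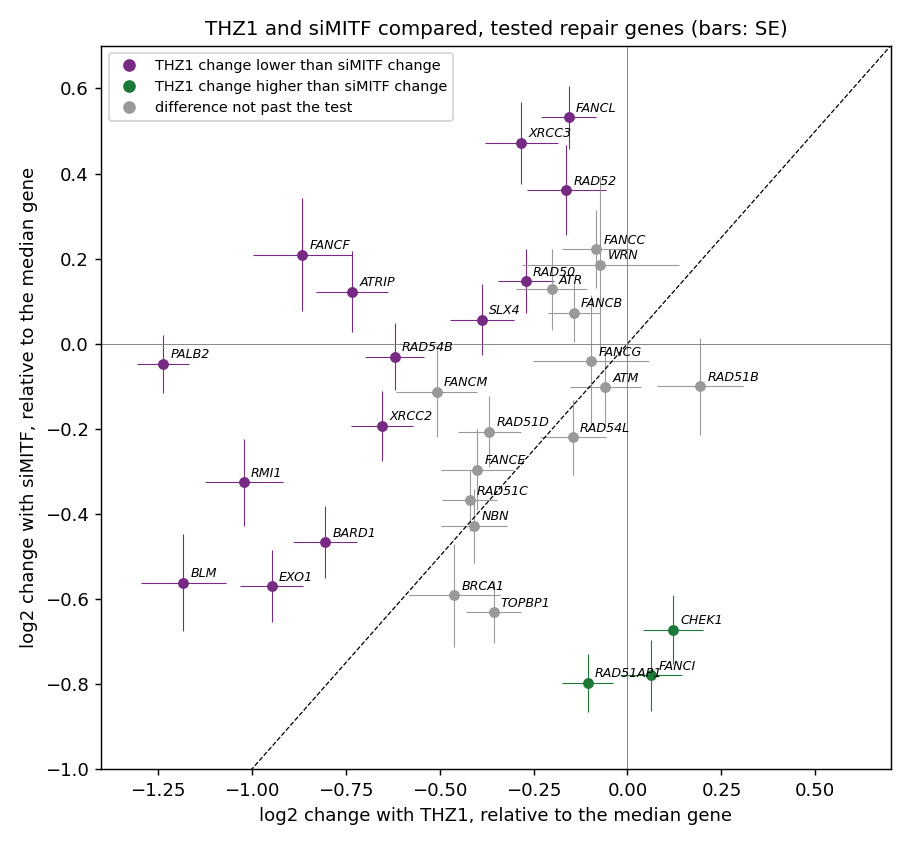
Log2 change with THZ1 (horizontal) against that with siMITF (vertical), both on the relative scale, for 32 repair genes with SE bars. The dashed line marks equal changes, purple genes had a lower and green genes a higher change with THZ1 by the test of the difference. PALB2, FANCF and ATRIP lie far left near 0 on the siMITF axis, and CHEK1, FANCI and RAD51AP1 lie low near 0 on the THZ1 axis.

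Several probe sets of a gene gave a further reading of the same arrays. Of the 32 genes, 17 had more than 1 probe set above the threshold. RMI1 had -1.02 on the relative scale with THZ1 on the probe set used and -1.05 to -0.82 on 3 others, and FANCF -0.87 with -0.97 and -0.61 on the others. Other genes that passed with THZ1 had smaller changes on their other probe sets. RAD54B and XRCC2 had -0.62 and -0.65 on the probe set used but -0.04 and -0.11 on the other. NBN had -0.41 on the one used and -0.34 to 0.03 on 4 others, RAD51C -0.42 and then -0.20 and -0.09, and RAD50 -0.27 and then -0.15 and -0.01. BRCA1 had -0.46 and then -0.39 to -0.26 on 3 others, and FANCE -0.40 and then -0.22. RAD54B also had -0.03 against -0.59 with siMITF. FANCI had 0.06 with THZ1 on the probe set used and 0.11 to 0.41 on others, against -0.78 and -0.77 to -0.71 with siMITF. CHEK1 had 0.12 with THZ1 on the probe set used but -0.22 to -0.04 on 5 others, and -0.67 and -0.65 to -0.50 with siMITF. FANCL had 0.53 with siMITF and 0.22 to 0.51 on 2 others. FANCF with siMITF had 0.21 on the probe set used and -0.21 and 0.50 on others, and RAD51D -0.21 with 0.02 and 0.26. PALB2, BLM, EXO1, BARD1 and ATRIP had no other probe set above the threshold. BRCA1, XRCC2 and FANCE were read by _x_at designs and RMI1, ATRIP and TOPBP1 by _s_at designs, which can detect related sequences.

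**Figure D4:**
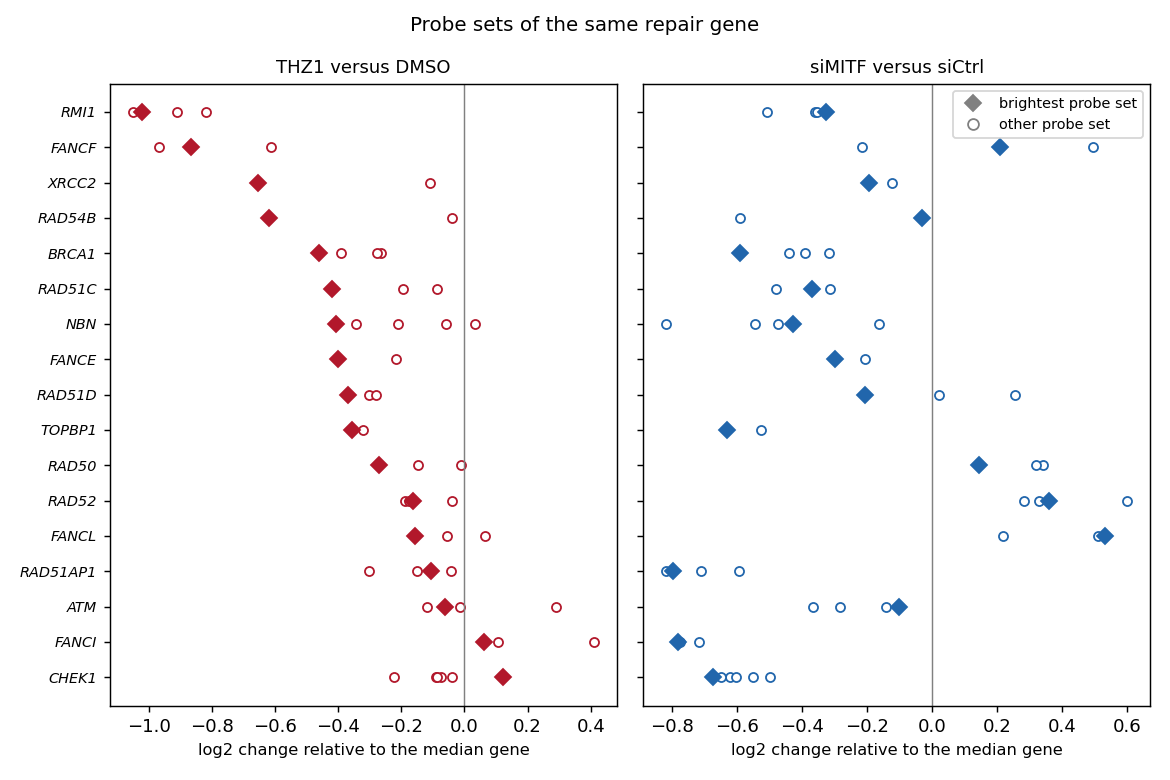
Log2 change on the relative scale of every probe set above the threshold (diamond: the brightest, which was tested; open circles: the others) for the 17 repair genes with more than 1, with THZ1 (left) and siMITF (right). The RMI1 probe sets lie together between -1.05 and -0.82 with THZ1, and those of RAD54B lie apart at -0.62 and -0.04.

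Other repair genes were set beside these. Of all tested genes, 21.1% fell and 17.7% rose on the relative scale with THZ1, and 10.0% fell per cell. With siMITF the relative shares were 24.7% and 19.5%. Some lists lay near these shares, among them end joining with THZ1 (28.6% and 14.3%) and nucleotide excision with siMITF (26.7% and 26.7%). Of 49 tested genes in a wider list of recombination, Fanconi and checkpoint factors, 22 fell and 5 rose on the relative scale with THZ1, and 10 fell per cell. They include ETAA1, an activator of ATR (-1.05 on the relative scale), RMI2, the partner of RMI1 (-0.87), and the helicase HELQ (-0.76). With siMITF 23 of the 49 fell and 2 rose on the relative scale, led by USP1, which removes ubiquitin from FANCD2 and FANCI (-0.86), FIGNL1 (-0.79) and MCM8 (-0.72). Of 14 end joining genes 4 fell and 2 rose on the relative scale with THZ1, of which CYREN, a regulator of end joining, had -1.91, and of 16 base excision genes 6 fell and 1 rose, among them the glycosylase TDG (-0.96). Of 15 nucleotide excision genes 2 fell (GTF2H1 -0.85 and XPC -0.76) and 5 rose, and of 4 mismatch repair genes PMS1 and MSH6 fell. With siMITF 6 of the 14 end joining genes fell and 2 rose on the relative scale, 8 of 16 base excision genes fell and 0 rose, 4 of 15 nucleotide excision genes fell and 4 rose, and of the mismatch repair genes MSH6 fell and MLH3 rose. The base excision genes included the flap nuclease FEN1 (-1.02) and the uracil glycosylase UNG (-0.67).

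The cell cycle lists moved with both treatments. Of 27 G1/S and replication genes, 26 fell on the relative scale with siMITF (median -0.70) and 15 with THZ1 (median -0.23). Of 24 G2/M genes, 24 and 12 fell and 0 and 1 rose (medians -0.72 and -0.20). With siMITF these are 96.3% and 100% of the 2 lists, beside 37.5% of the repair genes and 24.7% of all genes called lower. With THZ1 they are 55.6% of the G1/S list and 12 of 24 G2/M genes, beside 59.4% of the repair genes and 21.1% of all genes. In RNA of a whole culture, fewer cells in a phase and less mRNA per cell cannot be told apart, and the part of the cell cycle in the repair gene changes was not tested. CDK7 mRNA had signals of 251 and 323 with THZ1 and 395 and 493 with DMSO, a change of -0.41 on the relative scale (adjusted p = 0.00148) and of -0.60 per cell (adjusted p = 0.105). Of 8 tested genes in a list of transcription kinases and their partners, 2 fell and 1 rose on the relative scale with each treatment. These are 25.0% and 12.5% of the list, beside 21.1% and 17.7% of all genes with THZ1 and 24.7% and 19.5% with siMITF. CDK12 and CDK13 mRNA had -0.06 and 0.10 with THZ1 on the relative scale (adjusted p = 0.581 and 0.369). With siMITF CDK12 fell by 0.44 and CDK13 rose by 0.48 on that scale, and their part in the repair gene changes was not tested.

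**Figure D5:**
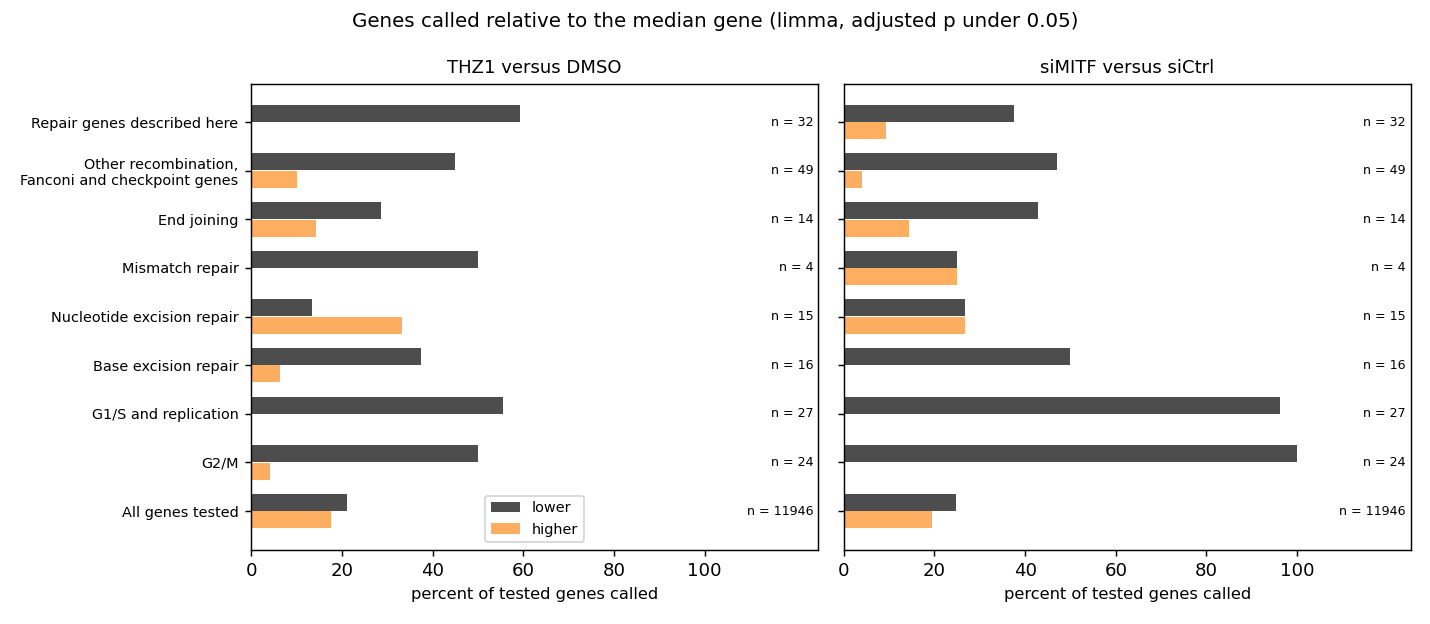
Percent of tested genes called lower (dark) and higher (orange) on the relative scale, by gene list, with THZ1 (left) and siMITF (right), and the number of tested genes at the right edge. With THZ1 the repair genes described here reach 59.4% lower and 0 higher, against 21.1% and 17.7% of all tested genes, beside 15 and 0 of 27 genes of the G1/S and 12 and 1 of 24 of the G2/M list. With siMITF they reach 37.5% lower, beside 96.3% of the G1/S and 100% of the G2/M list.

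The tests rest on 2 arrays a group. On the per-cell scale limma shrank every gene to 1 common SE of 0.25, with no uncertainty in it, and with each gene's own variance 0 of 32 repair genes and 0 of all 11946 genes passed per cell (lowest repair gene adjusted p = 0.268 with THZ1, 12 genes at an unadjusted p under 0.05; 0.0893 and 20 genes with siMITF). The per-cell THZ1 count dropped to 2 when DMSO replicate 2 was left out and to 6 for THZ1 replicate 1, and was 18 without THZ1 replicate 2, while 246, 354 and 2099 of all 11946 genes were lower in those fits. The siMITF count was 10 without siCtrl replicate 2 and 12 without siMITF replicate 2, with 1745 and 1824 of all genes lower. On the relative scale with each gene's own variance, 17 of 32 repair genes were lower and 0 higher with THZ1. With siMITF 8 were lower and 2 higher there. Of all 11946 genes, 1879 were lower and 1351 higher with THZ1, and 2265 and 1423 with siMITF.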

How the data were processed

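The authors' deposited values are probe set signals (intensity, linear scale) of 8 arrays, summarised with MAS5 per the submitters' processing notes (no version given), from 100 ng of RNA per array with ERCC spike-in RNA added in proportion to cell number per the labels' protocols. The design text of the series calls the values cell number-normalized; the calculation is not given in the sources used here. Signals were analysed as log2(value + 16) for the brightest of each gene's probe sets with 1 symbol (45284 of 49495 probe sets). Genes were tested at or above the 40th percentile of mean signal (39.2). limma 3.58.1 in R 4.3.3 fitted 1 mean per group over all 8 arrays, with empirical Bayes variances (prior degrees of freedom infinite per cell and 5.97 relative, 4 residual) and Benjamini-Hochberg adjustment over 11946 genes at 0.05. For the relative scale, each array was shifted so that its tested genes deviate by a median of 0 from their 8-array means. With 2 arrays a group, array number limits precision. The repair genes and other lists were chosen with earlier results of these data known, so their counts are descriptions. Values in every array are given for up to 10 genes per comparison with the largest passing relative change and separate groups, and always for BRCA1, BRCA2, FANCD2, ATM, ATR and CHEK1 where measured; up to 3 genes are named per other list. The fit was tested on simulated data. Alternatives were the pseudocount, the filter, the mean of probe sets, unmoderated variances, quantile normalization, each comparison's arrays alone, a replicate block and leaving out each array.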

Additional observations from a re-analysis of the deposited data

How the results depend on the processing

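No repair gene's passing change turned its direction under the alternatives run. Leaving out each array in turn gave 2 to 18 repair genes lower with THZ1 per cell, 10 to 26 lower with siMITF per cell, and 0 to 4 with a higher THZ1 than siMITF change per cell. Relative to the median gene it gave 17 to 18 and 10 to 13 lower. With each gene's own variance, 0 repair genes were lower with THZ1, 0 lower with siMITF and 0 higher in the difference per cell, as were 0 of all 11946 genes. In the difference relative to the median gene 9 were lower, beside 1692 of all genes. Without the signal filter, which tests 18244 genes, 7 were lower in that difference and 1 rose with siMITF on the relative scale. Of all genes in that fit, 1498 and 2480 were. With quantile normalization 9 were lower in the difference and 1 rose with THZ1, beside 2285 and 2468 of all 11946 genes. The cause was not tested. The replicate numbers are not stated to mark shared cultures. Deviations of equal number correlated at 0.112 over genes between DMSO and THZ1 and at -0.184 between siCtrl and siMITF. A replicate block gave 13 lower with THZ1 and 26 lower with siMITF in per-cell values, beside 1534 and 8473 of all 11946 genes. On the relative scale that block gave 19 and 12, and 14 lower and 3 higher in the difference. Of all genes these counts were 2492 and 2798, and 2403 and 2463. With the siRNA numbers crossed, an alternative added after seeing the data, 28 were lower with THZ1 per cell, and 4 lower and 11 higher in the per-cell difference, where 4539, 805 and 7412 of all 11946 genes were. Centring the drug and siRNA sets apart, also added later, gave 19 and 12 lower on the relative scale, beside 2703 and 2848 of all genes.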
